A study of Mus musculus with 9 samples.

Results

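The semaphorins, ephrins, Slits and netrins and their receptors were followed in the left ventricle of neonatal mice after transverse aortic constriction (TAC), an operation in which a ligature narrows the aortic arch and the ventricle pumps against a higher pressure. The genes were picked by a rule on the symbol, which was set with earlier results of these data known. It took semaphorins of classes 3 to 7, plexins, A-type and B-type ephrins and Eph receptors, Slits, Robos, netrins, the Unc5 receptors, Dcc and Neo1. The rule found 63 genes among 16698, all of them annotated as protein coding. All mice were of the outbred ICR/CD1 strain, and all hearts were taken at postnatal day 14. The groups were 3 sham-operated samples, 3 samples operated on at postnatal day 7 (called day-7 TAC below) and 3 at postnatal day 1 (day-1 TAC). The submitters call the first of these ages of surgery non-regenerative and the second regenerative, and the design asks how the response of the ventricle differs between them. Both TAC groups were collected at the same age, so the age at surgery and the time spent under constriction cannot be told apart. The day of the sham operation is not given in the labels used here. The labels also do not say that the samples of a group were separate animals, so the p-values cover the variation among these samples and no more.

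Axon guidance genes encode cues and receptors that attract or repel growing cells. Class 3 semaphorins are secreted and act mostly through neuropilins joined to A-type plexins. Semaphorins of classes 4 to 6 are membrane proteins, class 7 is anchored in the membrane by a lipid, and several of these bind plexins directly. Ephrins are held on the cell surface and signal to Eph receptor tyrosine kinases on the neighbouring cell, and B-type ephrins also signal backwards. Slits are secreted repellents that bind Robo receptors. Netrins bind Dcc, neogenin (Neo1) and the Unc5 receptors. In the heart these families are known for the patterning of vessels, of the outflow tract and of sympathetic nerves.

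Values are the deposited log2 values, which the authors scaled between libraries, and a difference of group means on that scale is given with its standard error (SE). A gene was called, and is said to have risen or fallen, at an adjusted p under 0.05 from limma with Benjamini-Hochberg adjustment over 13712 genes. The libraries held between 18535202 and 26521005 recovered reads. Mean correlation with the other libraries of the same group was lowest, at 0.979, for day-1 TAC replicate 1. Day-1 TAC replicate 3 held 10532 reads of Xist, the RNA that coats the inactive X chromosome in female cells, against 7 to 40 reads in the other libraries. This library is given separately below for the X-linked members. Marker genes were summed as deposited values taken out of the log. Ventricular cardiomyocyte markers stood at 148690 to 153951 in sham, 127577 to 137159 in day-7 TAC and 107746 to 138336 in day-1 TAC. The atrial list, which includes Nppa, stood at 640.8 to 824.5, 3998 to 6206 and 2986 to 4765. Both TAC groups thus lay below sham for the ventricular list and above it for the atrial list.

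Of the 63 guidance genes, 54 passed the filter of a log2 value above 0 in at least 3 libraries. The 9 that did not were Dcc, Epha1, Ntn5, Robo3, Sema3e, Sema4f, Slit1, Unc5a and Unc5d, which held 1 to 25 reads per library. Some known partners were therefore barely represented. Dcc, the classical attractive netrin receptor, had 6 to 17 reads, and Sema3e, the direct ligand of plexin D1, had 5 to 11. All listed semaphorins of classes 5, 6 and 7, plexins, ephrins and EphB receptors passed it. In the Slit family, Slit2 and Slit3 were tested and Slit1 was not.

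Per kilobase of exon, levels differed widely among the members. Plexin D1 (Plxnd1), an endothelial semaphorin receptor, came first with a mean of 27.3 per kb over the 9 libraries (deposited values taken out of the log). Efna1, an ephrin-A ligand, followed with 26.0, Plxnb2, a receptor for class 4 semaphorins, with 18.1, Ephb4, the venous receptor of ephrin-B2, with 17.7 and Ntn1 (netrin-1) with 17.6. Plxnd1 ranked above 89.7% of all tested genes per kb, and Ntn1 above 83.0%. As a family, the plexins summed to 59.4 to 73.6 per kb in each library, with no separation of the groups. The ephrin-B ligands summed to 36.2 to 45.5 in sham, 34.6 to 42.2 in day-7 TAC and 22.3 to 34.0 in day-1 TAC. The Slits summed to 2.77 to 4.32 in sham, 1.80 to 2.84 in day-7 TAC and 1.08 to 1.87 in day-1 TAC. The plot of levels per kb shows how far the groups separate for single genes.

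**Figure D1:**
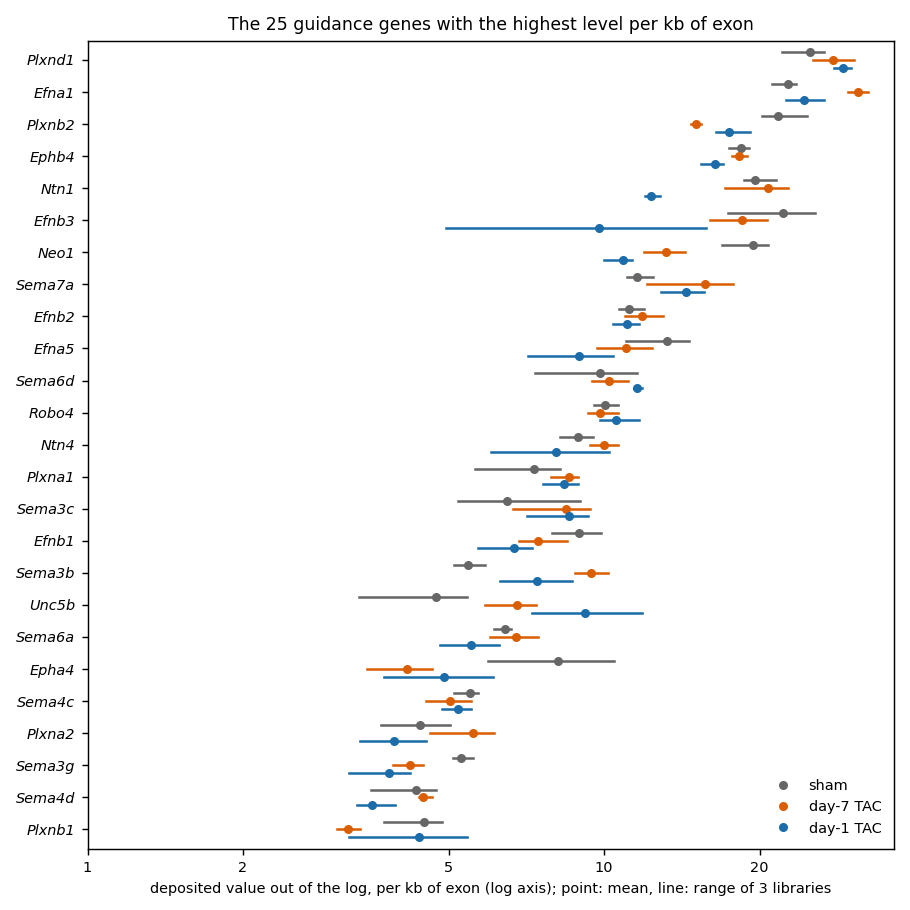
Levels of the 25 most abundant guidance genes, as deposited values taken out of the log and divided by the exon length in kb (log axis), with the mean (point) and range (line) of the 3 libraries of each group. Plxnd1 and Efna1 head the list, and the day-1 TAC ranges of Ntn1 and Neo1 lie below both other groups.

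With day-1 TAC, 21 of the 54 tested guidance genes were called against sham. Of these, 6 were higher (11.1% of the members, where 14.3% of all tested genes were called higher) and 15 were lower (27.8%, against 20.5% of all tested genes). With day-7 TAC, 5 were higher (9.26%, against 13.8%) and 8 were lower (14.8%, against 15.1%), which is near the share of all genes. The median difference of the members was -0.14 with day-1 TAC, where that of all tested genes was -0.04, and -0.07 with day-7 TAC, against -0.01. The members' differences ran from -1.32 to 1.03 and from -1.36 to 0.79, so the families did not move as a block. Both counts use the same 3 sham libraries. The groups did not overlap for 29 members with day-1 TAC (53.7%, against 48.0% of all tested genes) and for 16 members with day-7 TAC (29.6%, against 46.7%). On reads recovered from the deposited values and fitted with limma-voom, 10 members were higher and 12 lower with day-1 TAC. Over all tested genes that fit called 34.7%, and 60% of those calls were higher, where 41.1% were in the main fit. Epha2, Plxnd1, Robo2 and Sema7a were gained and Efnb1, Plxnb2 and Sema5a lost there. That scaling moved the median difference of all genes from -0.04 to 0.06. Other settings (another filter or scaling, no intensity trend, or a fit of the compared groups alone) ended the day-1 calls of Epha4, Ephb3, Plxna3, Plxnb2, Plxnb3 and Sema5a. With day-7 TAC, they or voom ended those of Plxnc1, Sema7a and Slit2. A test for any difference among the 3 groups called 22 members (40.7%, against 44.4% of all tested genes). In these bulk samples, fewer cells of a type and less RNA per cell cannot be told apart. The plot of differences gives all 54 tested members.

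**Figure D2:**
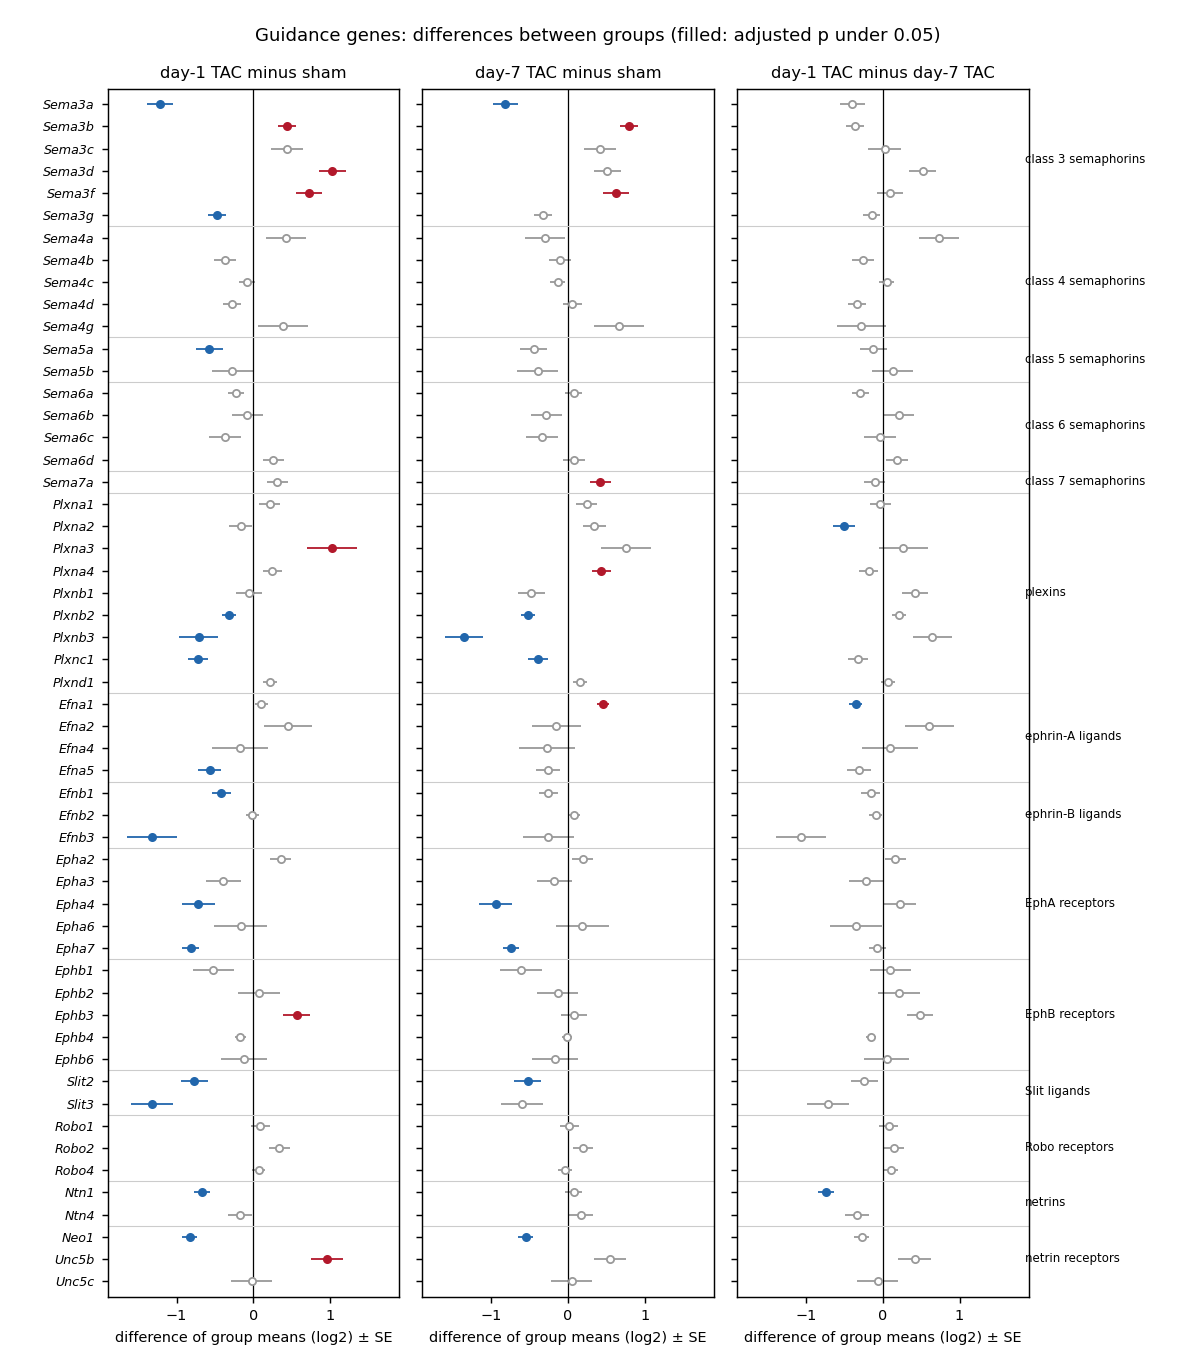
Difference of group means on the deposited log2 scale, with the SE from limma, for the 54 tested guidance genes in the 3 comparisons. Filled points were called (adjusted p under 0.05), red higher and blue lower, and the 21, 13 and 3 called members spread over both directions within the plexins and class 3 semaphorins when set against sham.

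Some markers of cell types that could carry these genes were called as well. Of all tested genes, 14.3% were called higher and 20.5% lower with day-1 TAC. With day-7 TAC these shares were 13.8% and 15.1%, and the counts of the short lists below should be read beside them. The marker lists were chosen with earlier results of these data known. Of 17 endothelial markers, 7 fell with day-1 TAC, and 1 rose and 4 fell with day-7 TAC. Their summed level was 3638 to 4211 in sham, 3447 to 3605 in day-7 TAC and 3055 to 3526 in day-1 TAC. Of 14 tested cardiac fibroblast markers, 4 rose and 1 fell with day-1 TAC, and 1 rose with day-7 TAC, with sums of 4112 to 5340, 4774 to 5486 and 5479 to 6506. Of 13 pericyte and smooth muscle markers, 4 rose and 3 fell with day-1 TAC, and 3 rose and 1 fell with day-7 TAC, with sums of 4400 to 4651, 4763 to 5049 and 4562 to 4904. Among 10 tested markers of Schwann cells and neurons, 3 rose and 3 fell with day-1 TAC and 1 rose and 3 fell with day-7 TAC. That list summed to 101.5 to 114.1 in sham, 107 to 114 in day-7 TAC and 115 to 123 in day-1 TAC. Among its falling genes, Sox10, a transcription factor of Schwann cells, fell by 1.05 with day-1 TAC and by 1.07 with day-7 TAC. Among its rising genes, Ngfr rose by 1.36 with day-1 TAC, and Pmp22 by 0.37 with day-1 TAC and 0.28 with day-7 TAC. Macrophage markers (12) gave 4 higher and 2 lower with day-1 TAC and 4 lower with day-7 TAC, with sums of 204 to 253, 137 to 153 and 197 to 261. Ventricular cardiomyocyte markers (12) gave 1 higher and 4 lower with day-1 TAC and 1 higher and 2 lower with day-7 TAC. Of 7 tested atrial markers, 2 rose in each comparison, among them Nppa. Of 2 tested epicardial markers, 1 rose in each, and of 4 tested skeletal muscle markers 1 rose and 1 fell with day-1 TAC and 2 rose and 1 fell with day-7 TAC. The part that these cell types have in the guidance gene results was not tested.

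For 5 called members the reference promoter is shown, to show called members of several families that moved in both directions: Neo1, Epha7 and Slit2 fell in both TAC groups, and Unc5b and Sema3d rose with day-1 TAC. The sequences are RefSeq's, from GRCm38.p6, and run 5′ to 3′ towards the start of transcription. Neo1 is at chr9:59036442-59036691 (minus strand), Epha7 at chr4:28812881-28813130 (plus), Slit2 at chr5:47982905-47983137 (plus), Unc5b at chr10:60831582-60831831 (minus) and Sema3d at chr5:12382916-12383165 (plus). Capitals mark matches to the motifs searched on either strand.
Neo1: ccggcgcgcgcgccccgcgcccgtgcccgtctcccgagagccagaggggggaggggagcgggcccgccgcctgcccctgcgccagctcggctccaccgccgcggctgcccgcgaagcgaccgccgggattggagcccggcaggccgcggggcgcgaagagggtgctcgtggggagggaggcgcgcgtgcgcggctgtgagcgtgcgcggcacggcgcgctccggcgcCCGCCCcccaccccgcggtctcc
Epha7: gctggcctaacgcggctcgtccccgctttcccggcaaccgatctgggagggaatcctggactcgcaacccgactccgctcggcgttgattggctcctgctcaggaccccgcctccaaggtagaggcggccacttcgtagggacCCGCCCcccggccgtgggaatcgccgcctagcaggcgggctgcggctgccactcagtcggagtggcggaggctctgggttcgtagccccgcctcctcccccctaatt
Slit2: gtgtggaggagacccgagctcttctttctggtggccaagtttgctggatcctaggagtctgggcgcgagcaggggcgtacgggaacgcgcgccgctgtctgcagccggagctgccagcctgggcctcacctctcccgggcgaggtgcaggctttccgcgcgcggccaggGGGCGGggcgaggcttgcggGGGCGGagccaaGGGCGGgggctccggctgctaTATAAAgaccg
Unc5b: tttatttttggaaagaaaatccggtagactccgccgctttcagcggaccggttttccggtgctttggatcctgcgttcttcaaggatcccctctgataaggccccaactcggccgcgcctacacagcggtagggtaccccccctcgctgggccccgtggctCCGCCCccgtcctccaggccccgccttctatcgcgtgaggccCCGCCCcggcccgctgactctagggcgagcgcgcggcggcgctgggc
Sema3d: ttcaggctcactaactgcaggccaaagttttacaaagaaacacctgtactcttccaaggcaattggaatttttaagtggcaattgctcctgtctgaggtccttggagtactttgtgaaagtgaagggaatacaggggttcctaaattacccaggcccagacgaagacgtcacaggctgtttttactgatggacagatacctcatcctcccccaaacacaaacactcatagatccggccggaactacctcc
The letters searched were the GC box GGGCGG, the TATA box TATAAA, the cyclic AMP response element TGACGTCA, the AP-1 element TGAGTCA or TGACTCA, the E-box CACGTG, the TEAD element CATTCC and the GATA element AGATAA. Matches to different motifs did not overlap in these 5 windows. The GC box was in the Neo1, Epha7, Slit2 and Unc5b windows, with 3 copies in Slit2 and 2 in Unc5b, and in 58.6% of the 10368 promoter windows of tested genes. Of the 47 tested guidance genes with an entry, 33 (70.2%) held it. Slit2 also held TATAAA, which 6.20% of all windows and 2 of the 47 held. The Sema3d window had a GC content of 46.8% and held none of the motifs, while that of Neo1 reached 83.2%. The RefSeq start of Sema3d is 219 bases upstream of the start of the GENCODE gene. The remaining motifs were in 1 to 5 of the 47 member windows, and in 2.75% to 10.7% of all windows. The median GC content of the member windows was 65.6%, against 60.0% of all. A match describes letters only.

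Among the secreted class 3 semaphorins, members moved in opposite directions. Sema3a (chr5:13125414-13602565), the repellent of sympathetic axons, had log2 values of 3.02, 2.76 and 2.91 in sham, 2.13, 2.31 and 1.79 in day-7 TAC, and 1.54, 1.74 and 1.75 in day-1 TAC. All TAC libraries lay below all sham libraries, and the TAC groups did not overlap each other. Sema3a fell by 1.22 (SE 0.17, adjusted p = 0.00063), to 0.430 of the sham level, with day-1 TAC and by 0.82 (SE 0.17, adjusted p = 0.00535) with day-7 TAC. Sema3d (chr5:12383385-12588948), a cue of vascular patterning that lies 536.5 kb from Sema3a on the same strand, went the other way. It had 3.52, 3.91 and 4.06 in sham, 4.36, 4.45 and 4.22 in day-7 TAC, and 5.26, 4.63 and 4.69 in day-1 TAC. All 3 groups were separate, with day-1 TAC the highest. Sema3d rose 2.04-fold with day-1 TAC (1.03, SE 0.18, adjusted p = 0.00203), and its difference with day-7 TAC was 0.51 (adjusted p = 0.0548). Together with Sema3c and Sema3e these genes lie within 5.35 Mb of chromosome 5. Sema3c, which guides neural crest cells into the outflow tract, differed by 0.44 (95% interval -0.03 to 0.91) with day-1 TAC and was not called.

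Sema3b and Sema3f, neighbours on chromosome 9 with 72.27 kb between them, both rose in both TAC groups. Sema3b had 4.62, 4.81 and 4.67 in sham, 5.60, 5.48 and 5.39 in day-7 TAC, and 5.37, 4.91 and 5.11 in day-1 TAC. The 3 groups did not overlap, and day-7 TAC was the highest. It rose 1.73-fold with day-7 TAC (0.79, SE 0.12, adjusted p = 0.00113) and 1.35-fold with day-1 TAC (0.43, SE 0.12, adjusted p = 0.0166). The second of these calls was lost without sham replicate 1 (adjusted p = 0.0524). Sema3f, a ligand for neuropilin 2, had 3.33, 3.43 and 3.64 in sham, 4.02, 4.36 and 3.90 in day-7 TAC, and 4.40, 3.83 and 4.34 in day-1 TAC. Both TAC groups lay above sham and overlapped each other. It rose by 0.72 (SE 0.17, adjusted p = 0.00918) with day-1 TAC and by 0.63 (SE 0.17, adjusted p = 0.0207) with day-7 TAC, a call lost without sham replicate 1, sham replicate 2 or day-7 TAC replicate 2 (adjusted p of 0.0620 to 0.0829). Of the 3 protein-coding genes between them, Gnai2 and Slc38a3 were tested. Gnai2, a G protein subunit, differed by 0.21 (adjusted p = 0.0842) with day-1 TAC and by 0.03 with day-7 TAC. Slc38a3, an amino acid transporter, rose by 1.04 (adjusted p = 0.000132) with day-1 TAC and differed by -0.13 (adjusted p = 0.375) with day-7 TAC.

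Sema3g, known as an arterial endothelial semaphorin, had 4.66, 4.55 and 4.53 in sham, 4.15, 4.34 and 4.28 in day-7 TAC, and 3.87, 4.26 and 4.20 in day-1 TAC. Each TAC group lay below sham. It fell by 0.47 (SE 0.11, adjusted p = 0.00989) with day-1 TAC, and differed by -0.33 (adjusted p = 0.0541) with day-7 TAC. Summed per kb, the class 3 semaphorins stood at 19.8 to 24.3 in sham, 26.6 to 30.1 in day-7 TAC and 25.6 to 30.0 in day-1 TAC. The family sum was therefore above sham in both TAC groups, while Sema3a fell in both and Sema3g with day-1 TAC. Sema3c, which was not called, is part of this sum, with means of 6.48 per kb in sham, 8.45 in day-7 TAC and 8.55 in day-1 TAC.

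Among the membrane-bound semaphorins, Sema5a and Sema7a were the called members. Of the 5 tested class 4 genes limma called 0 in each comparison, with 2 lower with day-1 TAC and 1 in each direction between the TAC groups at an unadjusted p under 0.05, and 0 with limma-voom. Of the 4 class 6 genes it also called 0, with 1 lower between the TAC groups at an unadjusted p under 0.05, and 0 with limma-voom. Sema5a, of class 5, a ligand of plexin B3, had 5.48, 4.91 and 4.62 in sham, 4.43, 4.62 and 4.61 in day-7 TAC, and 4.38, 4.43 and 4.48 in day-1 TAC. The day-1 TAC libraries were tightly grouped below the widely spread sham libraries. Sema5a fell by 0.57 (SE 0.18, adjusted p = 0.0288) with day-1 TAC, and the call was lost without sham replicate 2 or any single day-1 TAC library (adjusted p of 0.0543 to 0.0735). Without sham replicate 1, the highest library, Sema5a fell by 0.33 (adjusted p = 0.0491). Sema7a, the lipid-anchored semaphorin, had 5.36, 5.21 and 5.19 in sham, 5.32, 5.87 and 5.83 in day-7 TAC, and 5.68, 5.41 and 5.60 in day-1 TAC. The day-7 TAC range overlapped sham through its first library. It rose by 0.42 (SE 0.14, adjusted p = 0.0444) with day-7 TAC. This call was lost without any single sham library, day-7 TAC replicate 2 or 3, or day-1 TAC replicate 3 (adjusted p of 0.0578 to 0.158).

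Of the 9 plexins, receptors of the semaphorins, 1 rose and 3 fell in each comparison with sham. Of all tested genes, 14.3% rose and 20.5% fell with day-1 TAC, and 13.8% rose and 15.1% fell with day-7 TAC. Among A-type plexins, the partners of neuropilins, Plxna4 had 4.74, 5.18 and 5.18 in sham, 5.39, 5.43 and 5.59 in day-7 TAC, and 5.23, 5.38 and 5.23 in day-1 TAC. The 3 groups did not overlap, but day-1 TAC almost touched day-7 TAC and lay close above sham. Plxna4 rose by 0.44 (SE 0.12, adjusted p = 0.0221) with day-7 TAC, a call lost without day-7 TAC replicate 2 or 3 (adjusted p of 0.0523 and 0.0796). Without sham replicate 1, the lowest library, it rose by 0.29 (adjusted p = 0.0468). Plxna3, on the X chromosome, had only 19 to 80 reads per library. Its values were -0.08, 1.05 and 1.38 in sham, 1.59, 1.38 and 1.65 in day-7 TAC and 1.59, 1.98 and 1.86 in day-1 TAC, with the first sham library far below the rest. It rose by 1.02 (SE 0.33, adjusted p = 0.0333) with day-1 TAC. That call was lost without sham replicate 1, where the difference was 0.59 (adjusted p = 0.0613), or without day-1 TAC replicate 2 (adjusted p = 0.0878), and without day-1 TAC replicate 3, the library with the high Xist count, the difference was 1.00 (adjusted p = 0.0773).

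B-type plexins are receptors of class 4 semaphorins and of Sema5a, and Plxnb2 and Plxnb3 fell. Plxnb2, the most abundant of them, had 7.29, 7.58 and 7.29 in sham, 6.89, 6.86 and 6.83 in day-7 TAC, and 7.21, 7.00 and 6.99 in day-1 TAC. The groups were separate, with day-7 TAC the lowest. Plxnb2 fell by 0.52 (SE 0.09, adjusted p = 0.00267) with day-7 TAC and by 0.32 (SE 0.09, adjusted p = 0.0234) with day-1 TAC. The latter call was lost without sham replicate 2 or day-1 TAC replicate 2 or 3 (adjusted p of 0.0703 to 0.0860). Plxnb3, X-linked and at 21 to 81 reads, had 1.72, 1.66 and 1.62 in sham, 0.28, 0.64 and -0.0048 in day-7 TAC, and 0.61, 0.90 and 1.34 in day-1 TAC. Sham was the highest and most uniform group. It fell to 0.389 of the sham level with day-7 TAC (-1.36, SE 0.25, adjusted p = 0.00314). With day-1 TAC it fell by 0.72 (SE 0.25, adjusted p = 0.0463), and by 0.91 (adjusted p = 0.0260) without the library with the high Xist count. The day-1 call was lost without any single sham library, day-7 TAC replicate 1, or day-1 TAC replicate 1 or 2 (adjusted p of 0.0588 to 0.144). Plxnc1, the receptor of Sema7a, had 3.58, 3.56 and 3.60 in sham, 3.25, 3.18 and 3.13 in day-7 TAC, and 2.88, 2.62 and 3.08 in day-1 TAC. It stepped down from sham to day-7 TAC to day-1 TAC with no overlap. It fell by 0.72 (SE 0.13, adjusted p = 0.00214) with day-1 TAC and by 0.39 (SE 0.13, adjusted p = 0.0401) with day-7 TAC, where leaving out any single sham or day-7 TAC library ended the call (adjusted p of 0.0684 to 0.108).

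**Figure D3:**
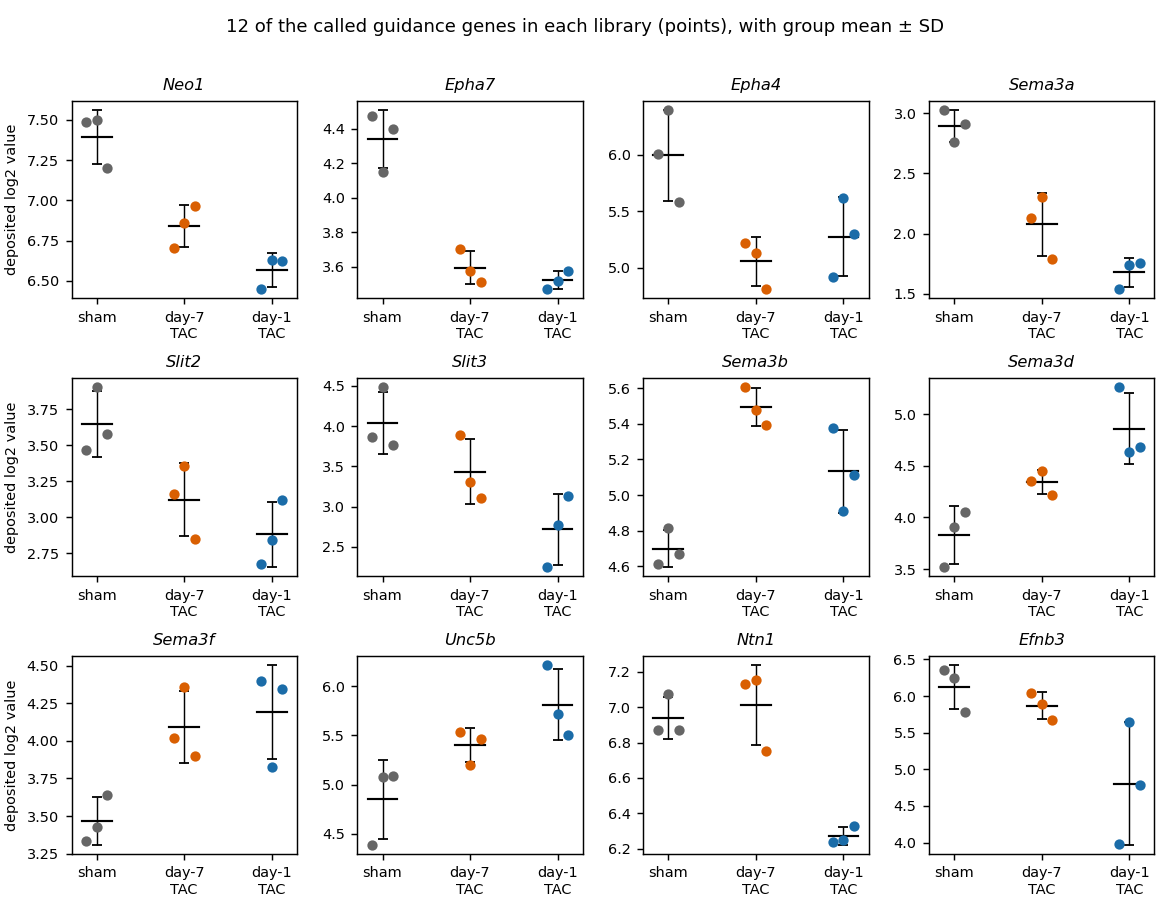
Deposited log2 values of 12 called guidance genes in each library (points), with the group mean (long bar) and SD (short bars), n = 3 per group, each panel on its own axis. Neo1, Sema3a and Slit2 step down from sham to the TAC groups, Sema3d steps up, and Ntn1 is low in day-1 TAC alone.

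In the ephrin-A and EphA families, the receptors Epha4 and Epha7 fell and the ligand Efna1 rose. Epha7 (chr4:28813131-28967499) had 4.47, 4.15 and 4.40 in sham, 3.70, 3.58 and 3.51 in day-7 TAC, and 3.47, 3.52 and 3.58 in day-1 TAC. The TAC groups overlapped each other far below sham. Epha7 fell by 0.82 (SE 0.11, adjusted p = 0.000557) with day-1 TAC and by 0.75 (SE 0.11, adjusted p = 0.00105) with day-7 TAC. Epha4, a receptor that binds ephrins of both types, had 6.01, 6.40 and 5.58 in sham, 5.22, 5.13 and 4.81 in day-7 TAC, and 4.91, 5.62 and 5.30 in day-1 TAC. One day-1 TAC library reached into the sham range. It fell to 0.521 of sham (-0.94, SE 0.22, adjusted p = 0.0094) with day-7 TAC and by 0.72 (SE 0.22, adjusted p = 0.0259) with day-1 TAC, the latter call being lost without sham replicate 1 or 2 or day-1 TAC replicate 1 or 3 (adjusted p of 0.0556 to 0.0984). Summed per kb, EphA receptors were at 10.4 to 14.5 in sham, 7.46 to 8.29 in day-7 TAC and 7.62 to 10.1 in day-1 TAC.

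Efna1, an ephrin known from endothelial cells, had 5.42, 5.27 and 5.43 in sham, 5.76, 5.83 and 5.89 in day-7 TAC, and 5.37, 5.45 and 5.61 in day-1 TAC. Day-7 TAC stood apart from both other groups, which overlapped. It rose by 0.46 (SE 0.08, adjusted p = 0.0033) with day-7 TAC and differed by 0.10 (adjusted p = 0.371) with day-1 TAC. Efna5, another A-type ligand, had 5.88, 5.83 and 5.47 in sham, 5.29, 5.64 and 5.47 in day-7 TAC, and 4.85, 5.23 and 5.39 in day-1 TAC. Its day-1 TAC libraries lay below sham by a narrow gap. It fell by 0.57 (SE 0.15, adjusted p = 0.0171) with day-1 TAC, and lost this call without sham replicate 1 or 2 or day-1 TAC replicate 1 (adjusted p of 0.0534 to 0.0621).

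Of the B-type ephrins, Efnb3 and Efnb1 fell with day-1 TAC. Efnb3, at 0.400 of the sham level, had 6.35, 6.24 and 5.79 in sham, 6.04, 5.90 and 5.67 in day-7 TAC, and 3.98, 5.65 and 4.79 in day-1 TAC. The 3 day-1 TAC libraries differed widely among themselves, and all lay below the lowest sham library. Efnb3 fell by 1.32 (SE 0.33, adjusted p = 0.0115), and by 0.91 (adjusted p = 0.0213) without day-1 TAC replicate 1, its lowest library. Efnb1, X-linked, had 4.95, 5.09 and 4.78 in sham, 4.87, 4.56 and 4.61 in day-7 TAC, and 4.30, 4.61 and 4.65 in day-1 TAC. It fell by 0.42 (SE 0.13, adjusted p = 0.0268), and by 0.48 (adjusted p = 0.0303) without the library with the high Xist count. The call was lost without sham replicate 1 or 2 or day-1 TAC replicate 1 (adjusted p of 0.0638 to 0.102). Of 5 EphB receptors, Ephb3 alone was called. It had 2.82, 3.41 and 3.24 in sham, 3.17, 3.23 and 3.32 in day-7 TAC, and 3.83, 3.44 and 3.90 in day-1 TAC, so that day-1 TAC was the highest group. It rose by 0.56 (SE 0.17, adjusted p = 0.0269), a call lost without sham replicate 1 or day-1 TAC replicate 1 or 3 (adjusted p of 0.0795 to 0.0878).

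Both tested Slits fell with day-1 TAC, while limma called 0 of the 3 tested Robo receptors in each comparison, with 1 (Robo2) higher with day-1 TAC at an unadjusted p under 0.05. Limma-voom called Robo2 higher there. Slit3 had 3.87, 4.48 and 3.77 in sham, 3.89, 3.31 and 3.11 in day-7 TAC, and 2.25, 2.77 and 3.13 in day-1 TAC. Day-1 TAC lay below sham and reached into the day-7 TAC range. Slit3 fell to 0.400 of the sham level (-1.32, SE 0.27, adjusted p = 0.00452) with day-1 TAC, and its difference with day-7 TAC was -0.60 (adjusted p = 0.119). Slit2 (chr5:47983138-48307733) had 3.46, 3.90 and 3.58 in sham, 3.16, 3.36 and 2.85 in day-7 TAC, and 2.67, 2.84 and 3.12 in day-1 TAC. Both TAC groups lay below sham and overlapped each other. It fell by 0.77 (SE 0.17, adjusted p = 0.00734) with day-1 TAC and by 0.53 (SE 0.17, adjusted p = 0.044) with day-7 TAC. The day-7 call was lost without sham replicate 2 or 3, day-7 TAC replicate 1 or 3, or day-1 TAC replicate 2 (adjusted p of 0.0579 to 0.159). Robo1, the classical receptor of Slit2, had 3.15, 3.25 and 3.50 in sham, 3.26, 3.34 and 3.34 in day-7 TAC, and 3.54, 3.38 and 3.25 in day-1 TAC. Its difference with day-1 TAC was 0.09 (95% interval -0.18 to 0.37). Robo4, the endothelial Robo, had 5.82, 5.73 and 5.66 in sham, 5.65, 5.62 and 5.82 in day-7 TAC, and 5.70, 5.75 and 5.95 in day-1 TAC, and differed by 0.07 (-0.13 to 0.27). These intervals leave room for changes of that size, and the groups overlapped for both receptors.

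Netrin-1 (Ntn1, chr11:68209364-68400823) fell with day-1 TAC. It had 6.87, 7.08 and 6.87 in sham, 7.13, 7.15 and 6.75 in day-7 TAC, and 6.24, 6.25 and 6.33 in day-1 TAC. The day-1 TAC libraries were close together and below all 6 others. Ntn1 fell to 0.629 of the sham level (-0.67, SE 0.11, adjusted p = 0.00139) with day-1 TAC and differed by 0.07 (adjusted p = 0.65) with day-7 TAC. Neogenin (Neo1, chr9:58874687-59036441), a receptor of netrins and of repulsive guidance molecules, had 7.48, 7.50 and 7.20 in sham, 6.70, 6.86 and 6.96 in day-7 TAC, and 6.45, 6.63 and 6.63 in day-1 TAC. The groups did not overlap, with sham the highest and day-1 TAC the lowest. Neo1 fell by 0.83 (SE 0.10, adjusted p = 0.000365) with day-1 TAC and by 0.55 (SE 0.10, adjusted p = 0.00305) with day-7 TAC. Unc5b (chr10:60762593-60831581), the netrin receptor of vessels, had 4.39, 5.08 and 5.09 in sham, 5.53, 5.20 and 5.47 in day-7 TAC, and 6.21, 5.72 and 5.50 in day-1 TAC. Every TAC library lay above every sham library. It rose 1.95-fold with day-1 TAC (0.96, SE 0.21, adjusted p = 0.00653), and its difference with day-7 TAC was 0.55 (adjusted p = 0.0769). Unc5c was tested and not called.

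Known ligand and receptor pairs were set side by side. In the pair Ntn1 and Unc5b, the ligand fell and the receptor rose with day-1 TAC. In the pair Sema3a and Plxna1, the ligand fell, and Plxna1 had 5.67, 6.20 and 6.22 in sham, 6.34, 6.33 and 6.16 in day-7 TAC, and 6.28, 6.33 and 6.11 in day-1 TAC, a difference of 0.21 (-0.09 to 0.51) with day-1 TAC. Plxna1 overlaps the tested gene Gm26811, and without a known strand setting their reads cannot be told apart. The arterial and venous pair was uncalled in both: Efnb2 had 6.20, 6.35 and 6.23 in sham, 6.48, 6.23 and 6.30 in day-7 TAC, and 6.32, 6.26 and 6.15 in day-1 TAC, a difference of -0.01 (-0.20 to 0.17) with day-1 TAC. Its receptor Ephb4 had 6.34, 6.47 and 6.45 in sham, 6.39, 6.46 and 6.36 in day-7 TAC, and 6.28, 6.16 and 6.30 in day-1 TAC. The day-1 TAC libraries of Ephb4 lay just below sham, by 0.17 (adjusted p = 0.0769).

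The immune semaphorin Sema4d had 4.77, 5.18 and 5.18 in sham, 5.15, 5.07 and 5.07 in day-7 TAC, and 4.92, 4.71 and 4.67 in day-1 TAC, a difference of -0.28 (adjusted p = 0.0933) with day-1 TAC. Its receptor Plxnb1 had 5.17, 5.54 and 5.53 in sham, 4.87, 5.02 and 4.92 in day-7 TAC, and 4.94, 5.70 and 5.43 in day-1 TAC. All day-7 TAC libraries of Plxnb1 lay below sham, at a difference of -0.48 (adjusted p = 0.0594). Plxnd1, whose ligand Sema3e was below the filter, had 7.33, 7.60 and 7.59 in sham, 7.53, 7.79 and 7.65 in day-7 TAC, and 7.78, 7.74 and 7.67 in day-1 TAC, a difference of 0.22 (adjusted p = 0.0862) with day-1 TAC. In the pair Sema7a and Plxnc1, the receptor fell in both TAC groups and the ligand rose with day-7 TAC.

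**Figure D4:**
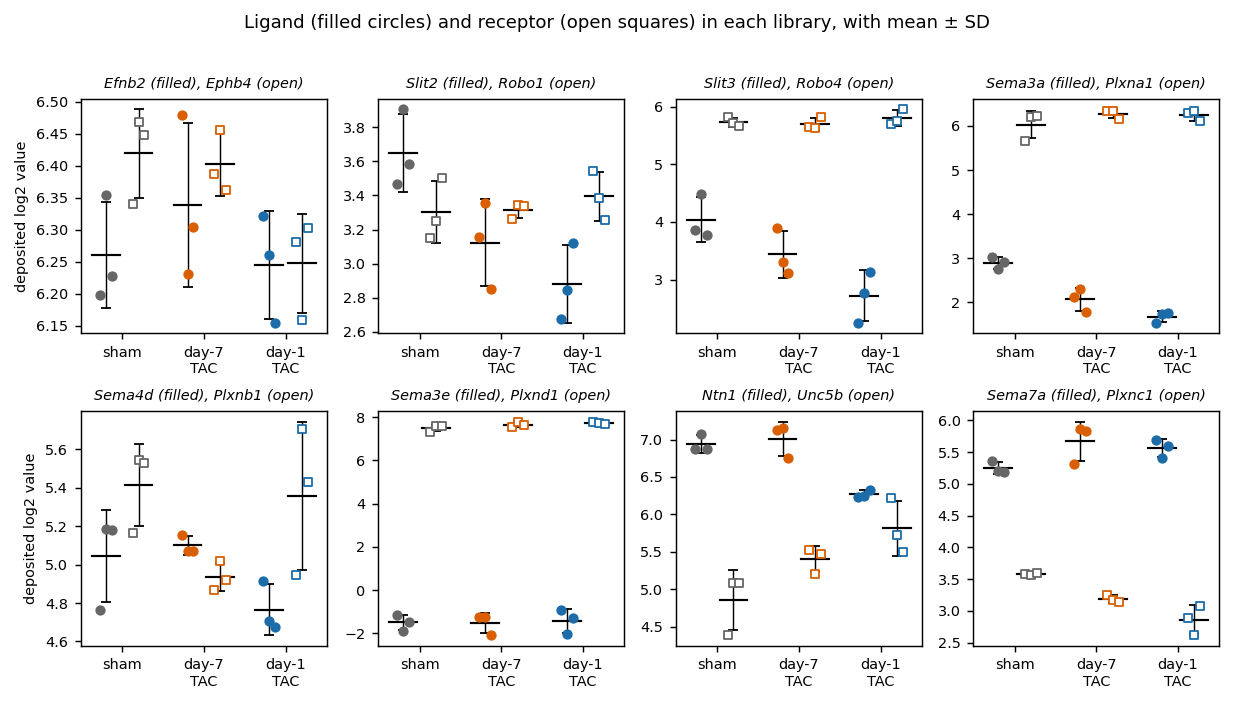
Deposited log2 values of 8 ligand and receptor pairs in each library (ligand filled circles, receptor open squares), with group mean and SD, n = 3 per group. Levels of different genes on this axis are not corrected for length, so only changes across groups should be read; Slit2 and Sema3a step down while Robo1 and Plxna1 stay within overlapping ranges, and Sema3e lies under the filter.

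Set directly against each other, the TAC groups differed in 3 members, all lower with day-1 TAC (5.56% of the members, where 10.3% of all tested genes were called lower), and 0 were higher, where 6.42% of all tested genes were. At an unadjusted p under 0.05 limma had 6 members higher, and limma-voom called 0 higher. The count of 3 was 1 without day-7 TAC replicate 2 or 3 and 5 without sham replicate 1 or day-1 TAC replicate 2. The groups did not overlap for 18 members (33.3%, against 38.9% of all tested genes). Ntn1 was lower with day-1 TAC by 0.74 (SE 0.11, adjusted p = 0.00281), in 3 of 3 libraries against all 3 of day-7 TAC, and this call held without each library in turn. Efna1 was lower by 0.35 (SE 0.08, adjusted p = 0.0187), and this call was lost without day-7 TAC replicate 2 or 3 or day-1 TAC replicate 1 or 2 (adjusted p of 0.0519 to 0.0684). Plxna2, an A-type plexin, had 5.99, 6.26 and 6.44 in sham, 6.30, 6.70 and 6.72 in day-7 TAC, and 5.86, 6.06 and 6.28 in day-1 TAC. Sham overlapped both TAC groups, which missed each other by a narrow gap. Plxna2 was lower with day-1 TAC by 0.51 (SE 0.15, adjusted p = 0.0421), and this call was lost without sham replicate 2, day-7 TAC replicate 2 or 3, or day-1 TAC replicate 1 or 2 (adjusted p of 0.0583 to 0.133). Efnb3 was lower by 1.06 (SE 0.33) and missed the threshold (adjusted p = 0.0503), which it passed with a stricter filter or a pseudocount. Quantile scaling ended the calls of Efna1 and Plxna2, and for Plxna2 a common trimmed mean, limma-voom and limma without trend did so as well. Genes such as Slit3 (-0.72, adjusted p = 0.0936) and Sema3d (0.52, adjusted p = 0.0729), which were called against sham with day-1 TAC and not with day-7 TAC, were not shown to differ between the TAC groups. Between these groups 7 of 12 macrophage markers (58.3%) and 1 of 14 fibroblast markers (7.14%) were higher with day-1 TAC, where 6.42% of all tested genes were. Lower were 1 of 17 endothelial (5.88%) and 1 of 12 ventricular cardiomyocyte markers (8.33%), where 10.3% of all tested genes were. Pericyte and smooth muscle markers gave 2 higher and 1 lower of 13, and Schwann cell and neuron markers 1 higher and 1 lower of 10. Their part in these differences was not tested.

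The 29 tested members called in no comparison were Efna2, Efna4, Efnb2, Epha2, Epha3, Epha6, Ephb1, Ephb2, Ephb4, Ephb6, Ntn4, Plxna1, Plxnb1, Plxnd1, Robo1, Robo2, Robo4, Sema3c, Sema4a, Sema4b, Sema4c, Sema4d, Sema4g, Sema5b, Sema6a, Sema6b, Sema6c, Sema6d and Unc5c. Their differences ran from -0.52 to 0.46 with day-1 TAC and from -0.62 to 0.67 with day-7 TAC, with a lowest adjusted p of 0.0594. Between the TAC groups they ran from -0.35 to 0.73. Efna4 and Sema4c each overlap another tested gene, whose reads cannot be told apart from theirs without a known strand setting.

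Co-receptors and further ligands of the families were taken from a list of 26 genes, of which 22 were tested. The list was chosen with earlier results of these data known, so its shares beside all genes describe it and test no enrichment. With day-1 TAC 7 rose (31.8%, against 14.3% of all tested genes) and 3 fell (13.6%, against 20.5%), with a median difference of 0.12 against -0.04 over all genes. With day-7 TAC 3 rose and 3 fell (13.6% each, near the 13.8% and 15.1% of all tested genes), with a median of -0.06 against -0.01. With day-1 TAC, Ntng2, a membrane-anchored netrin, rose by 1.02 (adjusted p = 0.00247), Met, the hepatocyte growth factor receptor that can join B-type plexins, by 1.29 (adjusted p = 0.00559), Adam17, a sheddase, by 0.31 (adjusted p = 0.0138) and Gpc1, a heparan sulfate proteoglycan that binds Slits, by 0.46 (adjusted p = 0.0143). With day-7 TAC, Mcam, an adhesion molecule that is also on the pericyte list, rose by 0.62 (adjusted p = 0.00286), while Rgma, a repulsive guidance molecule that binds neogenin, fell by 0.74 (adjusted p = 0.00652), the adhesion molecule L1cam by 0.78 (adjusted p = 0.0088) and Rgmb, a further neogenin ligand, by 0.46 (adjusted p = 0.0163). The neuropilins, co-receptors of class 3 semaphorins, were not called: Nrp1 differed by -0.02 with day-1 TAC and -0.30 (adjusted p = 0.0572) with day-7 TAC, and Nrp2 by 0.19 and -0.04. Between the TAC groups 3 genes of this list were higher with day-1 TAC (13.6%, against 6.42% of all tested genes), namely Gpc1, Adam17 and Ntng2, by 0.54, 0.34 and 0.68; Lrig2 differed by -0.32 (adjusted p = 0.0748).

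Signalling partners of the guidance receptors, most of them cytoplasmic, were tested for 69 of 71 listed genes. This list too was chosen with earlier results known, so its shares describe it and test no enrichment. With day-1 TAC 13 rose (18.8%, against 14.3% of all tested genes) and 14 fell (20.3%, against 20.5%), with a median difference of 0.09 against -0.04 over all genes. With day-7 TAC 15 rose (21.7%, against 13.8%) and 9 fell (13%, against 15.1%), with a median of 0.10 against -0.01. Rock1, the kinase downstream of RhoA, fell by 0.92 in each comparison with sham (adjusted p = 0.000178 and 0.000208). Ablim3, an actin-binding protein, fell by 0.88 (adjusted p = 0.000487) with day-1 TAC, and Rnd1, a small GTPase that binds plexins, rose by 1.80 (adjusted p = 0.000748). With day-7 TAC, Enah, an actin regulator linked to Robo and netrin signalling, rose by 1.01 (adjusted p = 0.000519), Dpysl3, of the family of semaphorin response mediators, by 0.89 (adjusted p = 0.00129) and Mical2, of the plexin-binding oxidases, by 0.77 (adjusted p = 0.00168). Between the TAC groups 3 were higher with day-1 TAC (4.35%, against 6.42% of all tested genes) and 11 lower (15.9%, against 10.3%). The lower genes were led by Ablim1 (-0.54, adjusted p = 0.00394), Ptprb (-0.42, adjusted p = 0.00894), Ablim3 (-0.56, adjusted p = 0.00975) and Mical2 (-0.60, adjusted p = 0.0107). Ptprb, a membrane phosphatase, is also on the endothelial list.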

How the data were processed

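RNA from the left ventricle was made into libraries with Dynabeads mRNA DIRECT and ScriptSeq v2 and read in single-end runs of 50 cycles, per the labels' protocols. The submitters' processing notes name Trim Galore, STAR, edgeR and the build mm10; the versions, annotation and strand setting were not given in the sources used here. Log2 values, TMM-scaled per the file headers, were deposited by the authors for 16710 rows and 9 libraries. The library medians ran from 3.75265 to 3.75542, a spread of 0.0028. The values thus share a nearly common median, which the TMM label by itself does not describe. Scaling makes a difference relative to the other genes of a library. From these values, 3 symbols on 12 rows were left out, which kept 16698 genes, and genes above 0 in at least 3 libraries were tested. Reads were recovered by setting the smallest value in a library to 1 read; 100% of values came out whole within 0.001, and each recovered number would be 1 too high if a pseudocount of 1 had been added. A linear model of all 9 libraries was fitted by limma 3.58.1 (R 4.3.3) with an intensity trend, two-sided, as the values are not counts, and was tested on simulated data. Sham libraries 2 and 3 share a column name and are numbered by column order. Coordinates and exon lengths came from GENCODE release 21 for mouse (build GRCm38, that is mm10). Promoters are RefSeq's 250 bases before the start, cut back where they ran into a transcript; 53 members had an entry, and Ntn1, Sema3b, Plxna4, Sema3f, Sema6a, Slit1, Dcc, Efnb3, Unc5d and Plxna1 had none. The members, gene lists and motifs were chosen with earlier results of these data known. Every member called in a comparison was named; values per library were given for called members, 8 ligand and receptor pairs and the 5 highest per kb, and other lists by counts and their 4 smallest p-values per comparison, except for results not reported here. Alternatives were the filter, log2(value + 1), quantile and trimmed-mean scaling, limma without trend, with a robust prior or with voom, a minimum fold of 1.2, fits of the 2 groups compared, and leaving out each library.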

Additional observations from a re-analysis of the deposited data

Results flagged for a closer look

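By the direct test of the TAC groups with limma, 3 guidance genes differed between day-1 TAC and day-7 TAC. That is 5.56% of the members, where 16.7% of all tested genes were called. The difference (day 1 minus day 7, log2) was -0.741 for Ntn1, -0.506 for Plxna2 and -0.353 for Efna1. In each the 3 day-1 TAC libraries lay below the 3 day-7 TAC libraries. Such a lack of overlap was seen for 38.9% of all tested genes. Ntn1 kept its call in 9 of 9 leave-one-out fits, Efna1 in 5 and Plxna2 in 4. For Ntn1 the effect against sham was -0.67 with day-1 TAC and 0.07 with day-7 TAC, for Plxna2 -0.16 and 0.34, and for Efna1 0.10 and 0.46. The age at surgery and the time under constriction cannot be told apart in these differences. The same sham group, whose day of operation is not given, stands in both effects and drops out of the direct test. The labels match no sham group to each age of surgery. An operation at that age therefore cannot be told apart from the constriction.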

How the results depend on the processing

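No difference of a guidance gene that was called turned its direction under any alternative run. When the test asked for a fold change above 1.2, 9 members were called with day-1 TAC, 4 with day-7 TAC and 1 between the TAC groups, in place of 21, 13 and 3; over all genes the calls went from 4776 to 1428, from 3962 to 1066 and from 2287 to 273. When each library was left out in turn, the counts were 15 to 23, 9 to 17 and 1 to 5 (1 without day-7 TAC replicate 2 or 3, 5 without sham replicate 1 or day-1 TAC replicate 2), and 17 to 24 for any difference among the groups. Over all genes, 2594 were called with day-7 TAC without day-7 TAC replicate 2, and 1261 to 1300 between the TAC groups without any single day-7 TAC library. Of the 21, 13 and 3 calls, 12, 8 and 1 held in all leave-one-out fits and in all further alternatives run for them. These alternatives, which leave aside the minimum fold and the replicate block, were 9. For Plxnb3 they were 8, since it did not pass the stricter filter. With limma-voom, 60% of the calls over all genes were higher with day-1 TAC, in place of 41.1%, 59.0% in place of 47.7% with day-7 TAC and 50.7% in place of 38.5% between the TAC groups. With quantile scaling 48.7% were higher between the TAC groups, and 1 member was called higher and 1 lower there. The replicate numbers of the TAC libraries did not pair them: same-numbered libraries correlated at -0.224, -0.110 and -0.037, and no library correlated best with its own number. With a replicate block on these 6 libraries, 3 members were called, the same 3 genes, and 1167 of all genes in place of 2287. For the comparisons with sham no block was fitted, since 2 sham columns carry 1 number. With 3 libraries a group, the members near the filter, such as Plxna3 and Plxnb3, rest on few reads.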
